A study of Mus musculus with 4 samples.

Results

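The cytosolic ribosomal protein genes of mouse Th17 cells (helper T cells that make the cytokine IL-17) were described in 4 RNA sequencing libraries. Members were protein-coding genes whose symbol begins with Rpl or Rps and a number, with Rplp0, Rplp1, Rplp2 and Rpsa added, and the Rps6k kinases and Rps19bp genes left out. The rule found 91 members among 50600 counted genes, of which 21764 were protein-coding. Of these, 46 were the standard genes of the large subunit, 31 the standard genes of the small subunit, 8 were paralogues, and 6 were coding genes that carry a pseudogene name. They lay on 20 chromosomes.

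Per the labels, all 4 libraries came from primary Th17 cells of strain C57BL/6NJ, with a shared donor label, sex not collected and age unknown. No genotype change, treatment or comparison group is named, so each comparison below sets genes or libraries of 1 group side by side. The assay is called total RNA, while the library protocol that the labels link to names poly(A) RNA, and 48 hours stand in the counting output's name only. The labels number the libraries as biological replicates but do not say that they are separate animals or cultures, so p-values measure only the spread between these samples, which may be technical. Totals ranged from 28555677 to 58104663 counted fragments. Th17 defining genes were high: Il17a stood at 4436 ± 179 TPM (SD, n = 4) and Il17f at 11569 ± 117. TPM is a gene's count divided by its exon length and scaled to a fixed library sum. Among markers of other cells, Foxp3 of regulatory T cells was highest at 5.25 ± 1.18 TPM, followed by Il4 at 0.920 ± 0.656, Ifng at 0.0737 ± 0.0771 and Cd8a at 0.0612 ± 0.0477, and Lyz2 had 0 counts in each library. In such bulk samples, fewer cells of a type and less RNA per cell cannot be told apart.

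The cytosolic ribosome is built from a large and a small subunit, and each protein is present once per ribosome except for the acidic stalk proteins, which are present in several copies. Ribosomal protein mRNAs begin with a terminal oligopyrimidine (TOP) tract, a run of C and T bases right at the cap, through which the kinase mTOR and the binding protein LARP1 control their translation together. In activated T cells, ribosome production goes with growth before division. Mouse genomes also hold paralogues of several members and many processed pseudogenes, which are copies of mRNAs without introns.

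The first set of sequences shows runs of C and T around the annotated gene starts, which need not be the capped base. The RefSeq promoter table of GRCm38.p6, with 250 bases before and 50 after each gene start, held 65 of the 91 members. In each, the longest run of C and T was searched from 50 bases before to 50 after the annotated start, and runs that reached the end of that span were cut there. Shown, 5′ to 3′ with the run in capitals, are the 3 members with the longest runs, then the pair genes present in the table whose run held 9 bases or more, then Rpl24, the standard gene with the lowest level.
Rpl7a: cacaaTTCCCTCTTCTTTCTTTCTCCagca
Rpl27a: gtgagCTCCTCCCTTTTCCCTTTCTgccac
Rpl35: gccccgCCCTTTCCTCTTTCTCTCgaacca
Rpl3l: tggtggggaggCCCCTTCCTaacctgcagg
Rpl10: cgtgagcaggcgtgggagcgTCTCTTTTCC
Rpl22: ccgtctgaCTCCTCCCTTTCCCgacagccg
Rpl22l1: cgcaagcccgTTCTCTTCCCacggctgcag
Rpl36a: cggctctagCCTCTCTCTTTCCgagctgct
Rpl36al: gctctgttcgTCCCTTTCCTgttcggcgcg
Rpl39: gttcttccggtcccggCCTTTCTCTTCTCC
Rpl39l: aacacccactgCCTCTCCCTagctcccagg
Rps27: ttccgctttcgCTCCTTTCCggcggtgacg
Rps27l: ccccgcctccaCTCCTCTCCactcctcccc
Rpl24: acctcaaacccaCTCCCCgccaatgctgta

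The windows of Rpl7a, Rpl27a and Rpl35 lie at chr2:26910788-26910817, chr7:109519186-109519215 and chr2:39005115-39005144, the last on the minus strand. Their runs hold 21, 20 and 18 bases, against 6 in Rpl24 (chr16:55966227-55966256). The runs of Rpl7a, Rpl27a and Rpl35 began 14, 4 and 7 bases before the annotated start, that of Rps27 began 2 before and that of Rpl22l1 at base 2 after it. The other printed runs began 22 to 39 bases before the start or 28 to 41 after it, so they are not at the annotated start. Among standard members in the table, 39 of 57 (68.4%) had a run of at least 10 pyrimidines, against 4864 of all 27025 genes. The median longest run was 10 bases in standard members and 7 over all genes. Of the 8 other members in the table, 2 had a run of at least 10: Rpl22l1 and Rpl36al. The letters CTTCCG, searched on both strands of the 300-base promoters, occurred in 40 of 57 standard members (70.2%) and in 17.2% of all genes. TATAAA, the TATA box letters, occurred in 8.77% of standard members and 14.2% of all genes. A match describes letters in the window, not a bound site.

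The second set shows how far a paralogue's coding sequence departs from its standard gene, which is 1 of the things that bear on whether fragments can be told apart. The coding sequence of Rpl39, a small protein of the exit tunnel through which the new chain leaves, is set beside that of Rpl39l, with differing bases in capitals. Rpl39 lies on the X chromosome (chrX:37082520-37085402, minus strand) and Rpl39l on chromosome 16 (chr16:10170226-10174911, plus strand) of mm10.
Rpl39: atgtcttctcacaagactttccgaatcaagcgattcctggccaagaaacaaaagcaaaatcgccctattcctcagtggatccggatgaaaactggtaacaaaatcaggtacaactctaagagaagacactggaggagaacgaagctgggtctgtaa
Rpl39l: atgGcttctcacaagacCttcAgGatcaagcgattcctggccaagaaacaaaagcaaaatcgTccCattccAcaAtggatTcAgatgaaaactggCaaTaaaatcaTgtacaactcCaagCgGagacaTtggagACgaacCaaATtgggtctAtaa

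Both are 156 bases long and differ at 23, of which 16 are at the third base of a codon. No 100-base stretch of Rpl39l occurred in another gene's transcripts. Rps27, a zinc finger protein of the small subunit, and its retrogene Rps27rt have the same coding sequence over all 255 bases.
Rps27: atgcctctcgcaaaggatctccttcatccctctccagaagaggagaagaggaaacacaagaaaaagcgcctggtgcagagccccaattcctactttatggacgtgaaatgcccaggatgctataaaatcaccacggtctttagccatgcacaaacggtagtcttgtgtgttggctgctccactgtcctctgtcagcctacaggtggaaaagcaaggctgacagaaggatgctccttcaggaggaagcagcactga

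Rps27 is on chromosome 3 (chr3:90212522-90213651) and Rps27rt on chromosome 9 (chr9:114982366-114982739), both on the minus strand. By contrast, the coding sequences of Rps27l and Rps27 were identical in 60.1% of aligned columns. The other pairs ranged from 50.3% for Rpl7l1 with Rpl7 to 87.9% for Rpl36al with Rpl36a.

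Members held a large and steady part of the measured RNA. They took 5.25%, 5.32%, 5.37% and 5.34% of counts in replicates 1 to 4, and 11.4%, 11.5%, 11.6% and 11.5% of TPM. The mean share of TPM was 11.5% ± 0.0771 (SD, n = 4). Of this, the large subunit's standard genes held 6.82% ± 0.0628, the small subunit's 4.52% ± 0.0277 and the paralogues 0.161% ± 0.00317. At 1 TPM or more in every library stood 86 of 91 members, against 47% of protein-coding genes. The 5 below were Rpl3l, Rpl10l, Rps12-ps3, Rpl9-ps1 and Rpl36-ps4.

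Every standard gene was present, and the levels spanned 2 orders of size. Over the 77 standard genes the median of mean TPM was 1031. The 10th percentile was 390.0 TPM and the 90th was 2661. Rplp1 was highest at 10734 ± 265 TPM and Rpl24 lowest at 90.1 ± 6.51, a ratio of 119. Of the 10 protein-coding genes with the highest mean TPM, 4 were standard members, as were 37 of the highest 100 and 72 of the highest 500. Rpl24 ranked 2248 among protein-coding genes, and the other 76 stood within the first 1000.

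**Figure D1:**
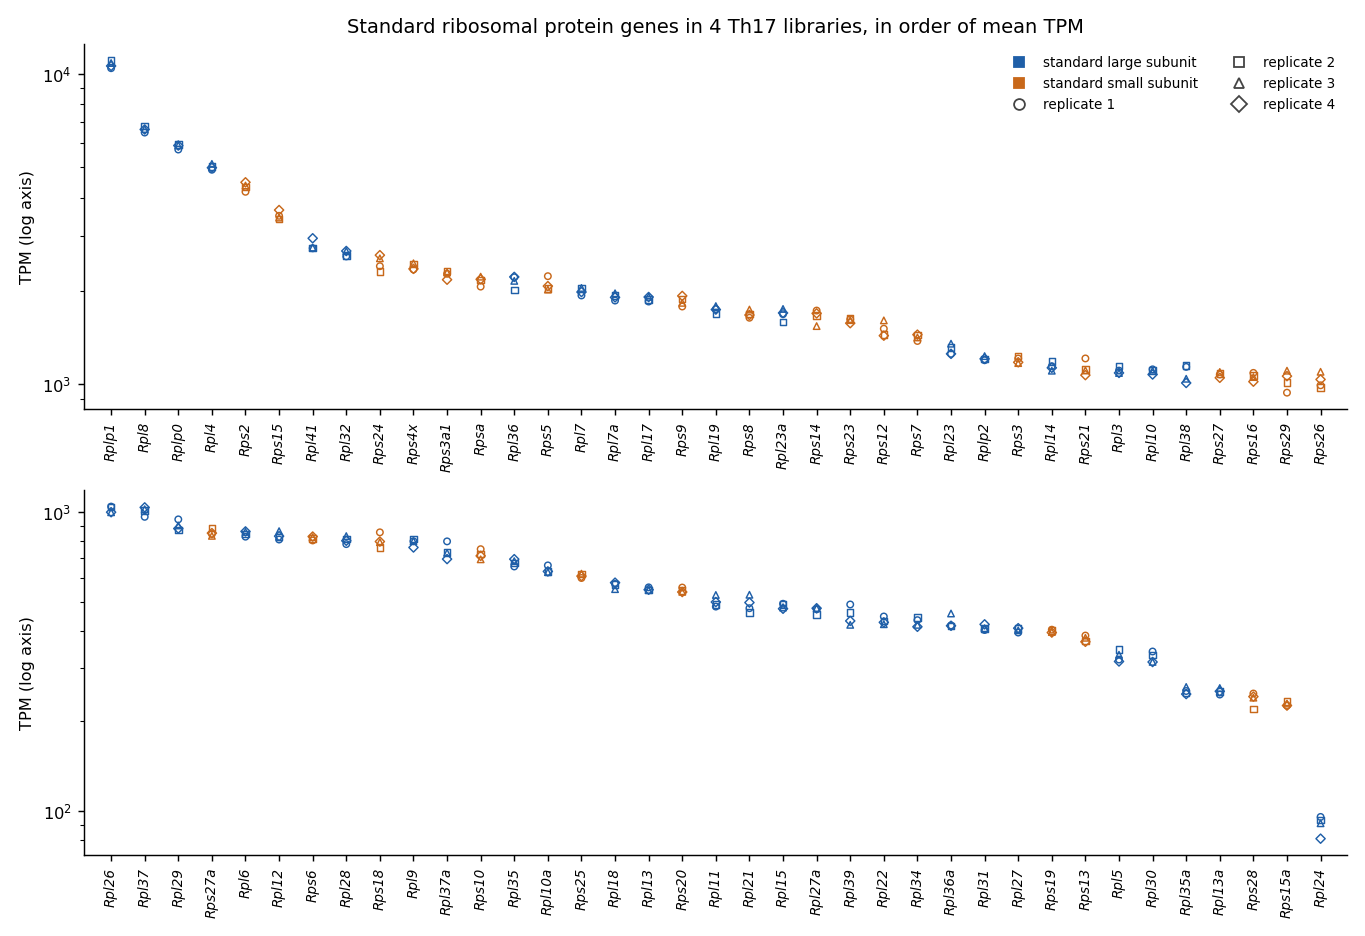
TPM of 74 of the 77 standard genes (vertical log axis) in the order of mean TPM (horizontal axis, continued in the lower panel), with 1 symbol per replicate and colour for the subunit. The symbols of a gene lie close together while the genes run from Rplp1 at 10734 TPM to Rpl24 at 90.1 TPM.

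Of the stalk proteins, Rplp1 and Rplp0 were among the 3 highest standard genes by exon length, and Rplp2 stood 29th. Rplp1, which with Rplp2 forms the flexible arm that recruits translation factors, stood at 10438, 11042, 10845 and 10609.9 TPM in replicates 1 to 4. Its partner Rplp2 was lower in every library, at 1197, 1207, 1234 and 1209. Rplp0, the base of the stalk, lay between them at 5709.7, 5919.5, 5892 and 5881 TPM. By exon length, the library ranges of the 3 genes did not overlap. With the mean length of coding transcripts in its place, Rplp1 stood at 5712 TPM, Rplp0 at 5332 and Rplp2 at 2185. The gaps between them were then narrower, so their size depends on the length used. For Rplp1, 30.0% of its 100-base windows also occurred in transcripts of other genes, for Rplp0 13.96% and for Rplp2 9.51%.

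Others of the highest 10 standard genes came from both subunits. Rpl8, near the centre where peptide bonds form, stood at 6634 ± 129 TPM, and Rpl4, whose long loop lines the exit tunnel, at 5019.7 ± 91.9. Rps2 (4337 ± 126) lies where mRNA enters the small subunit, and Rps15 (3499 ± 103) is part of its head. Rpl41, an exceptionally short peptide of the large subunit, stood at 2745, 2749.9, 2759 and 2956 TPM. Its replicate 4 value was the highest and the other libraries lay close together. Rpl32 (2642 ± 55.2) and Rps24 (2469 ± 134) were also among them, and their library ranges overlapped. Of 76 neighbouring pairs in the order, 59 overlapped in their library ranges, so most single steps of the order are not resolved.

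Rpl24, which forms a bridge between the subunits, stood apart at the low end. Its TPM was 95.4, 93.3, 90.9 and 80.7, lowest in replicate 4 and below every other standard gene in each library. In the counting annotation, 47.0% of its exon bases lie on the same strand as Gm28037, which had 0 counts in every library, and fragments that touch exons of both are not assigned. Of its 100-base windows, 49.0% also occurred in transcripts of other genes, and 40.8% in those of Gm28037 itself. The shares of exon bases and of windows thus largely describe the same overlap. When only its coding transcripts were searched, a setting added after seeing the data, 80.1% of windows occurred in other genes. The part of shared sequence and of the overlap with Gm28037 in the level of Rpl24 was not tested.

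Above Rpl24 came Rps15a at 228 ± 3.33 TPM, Rps28 at 237 ± 11.9, Rpl13a at 251 ± 5.19 and Rpl35a at 251 ± 6.07. Rpl13a, which in myeloid cells can leave the ribosome and repress inflammatory mRNAs, has 35.4% of its exon bases in common with other genes of its strand, mainly Gm45713 (0, 0, 0 and 1 counts). Rpl30 (326 ± 13.2), Rpl5 (329 ± 13.8), Rps13 (376 ± 8.37), Rps19 (399 ± 4.197) and Rpl27 (403 ± 6.25) completed the lowest 10. Their levels over libraries were narrow beside the distance to the median of 1031 TPM.

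Gene length enters this order. The deposited length joins all exons of a gene, retained introns included, and its median over standard genes was 1734 bases, against 730 for the mean coding transcript. For 47 of 77 it exceeded the coding transcript by over 2 times. Across the 77 genes, Spearman's rho between exon length and mean TPM was -0.50, where the length enters both, and between coding transcript length and mean TPM 0.02. With coding transcript lengths, Rplp1 remained the highest (5712 ± 143 TPM) and Rpl24 the lowest, a ratio of 78.3, and the median was 1208. Under both lengths, 6 of the 10 highest genes and 5 of the 10 lowest were the same. Rpl35a moved from 251 to 929 TPM and Rps19 from 399 to 1372, while Rps23 fell from 1609.9 to 691.

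**Figure D2:**
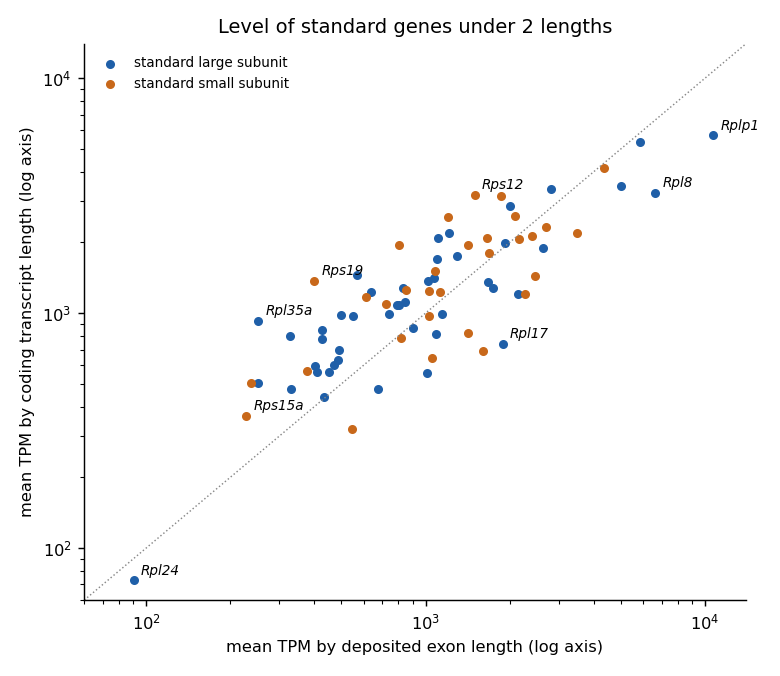
Mean TPM over 4 libraries of the 77 standard genes by the deposited exon length (horizontal log axis) and by the mean coding transcript length (vertical log axis), coloured by subunit; the dotted line marks equal values. Rplp1 and Rpl24 hold the ends under both lengths, while Rpl35a lies well above the line (251 against 929 TPM).

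Genes of the small subunit had the higher median. In replicates 1 to 4 it was 1213, 1235, 1172 and 1179 TPM, against 818, 835, 860.5 and 846 for the large subunit. The small subunit was higher in 4 of 4 libraries, by 0.51 ± 0.06 on the log2 scale (exact sign-flip permutation test, two-sided, p = 0.125, the smallest that 4 libraries allow). Other lengths, a geometric mean and members with little shared sequence gave 0.35 to 0.78. Sums over 46 large and 31 small subunit genes ran the other way, at -0.59, and so did arithmetic means, at -0.025, a summary added after seeing the data.

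Lists of members by role lay within this range. The 5S particle proteins Rpl5 and Rpl11, which when free bind and inhibit Mdm2, stood at 329 and 500.2 TPM (± 13.8 and 19.7). The 8 proteins around the exit tunnel had a median of 1350 TPM. The 9 listed genes altered in Diamond-Blackfan anaemia, an inherited failure of red cell production, had a median of 721 TPM and ran from Rpl35a and Rpl5 to Rps7 (1422 ± 30.8) and Rps24 (2469 ± 134), with Rps10 at 721 ± 23.6 and Rps26 at 1027 ± 54.3. Rps27a, made as a fusion with ubiquitin, stood at 853 ± 22.2. Members on the X chromosome were Rps4x (2401 ± 58.3), Rpl10 (1103 ± 18.1), Rpl39 (451 ± 31.8) and Rpl36a (427 ± 20.5).

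Genes outside the rule's names were read from the same fit. Fau, a ubiquitin-like fusion with a small subunit protein, stood at 1621 ± 70.5 TPM and Rack1, a scaffold on the small subunit, at 1327 ± 43.4. A list of 9 genes drawn up as chaperones of ribosomal proteins had a median of 115 TPM. It ran from Rpain (16.5 ± 0.757) and Pdcd2 (39.4 ± 3.21) to Grwd1 (210 ± 10.9) and Nap1l1 (433 ± 12.7). Not all of the 9, Rpain and Nap1l1 among them, are dedicated to ribosomal proteins, and Nap1l1 is also counted among the other TOP genes. Regulators of TOP translation, a list that also holds a standard gene of the small subunit, had a median of 45.99. In it Larp1 stood at 337 ± 5.43 and Rptor at 16.8 ± 0.860. The 14 other TOP genes had a median of 1187, led by Eef1a1 (10714 ± 318). Mdm2 stood at 112 ± 4.13 and Trp53 at 167 ± 5.81.

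Paralogues were lower than their standard genes in 4 of 4 libraries for each of 9 pairs, and for each the exact sign-flip p was 0.125, also after adjustment over the 9 pairs (two-sided, the smallest possible). Their levels fell into a high, a low and a nearly absent set. One of the 9, Rps4l, is a transcribed pseudogene in the annotation used and so lies outside the rule.

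Rps27l, a p53 target gene in other cells, was the highest paralogue at 687, 700.3, 685 and 684 TPM. Rps27 stood at 1077, 1086, 1097 and 1051 TPM. The ratio was -0.64 ± 0.03 on the log2 scale (-1.18 with coding transcript lengths), so that Rps27l gave 39.01% ± 0.426 of the pair's TPM. Rpl36al, an autosomal partner of Rpl36a, stood at 289, 273, 296 and 275 TPM beside 417, 416, 458 and 416. Its log2 ratio was -0.59 ± 0.04, and -1.70 with coding transcript lengths.

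Rpl7l1, linked to ribosome assembly in the nucleolus, stood at 459.8, 457, 440.0 and 452 TPM beside 1935, 2038, 2046 and 1984 for Rpl7. The log2 ratio was -2.15 ± 0.06 (-2.73 with coding transcript lengths). Rpl22, which binds RNA and is needed for the development of αβ T cells, stood at 447, 431, 421 and 427 TPM. Its paralogue Rpl22l1, whose mRNA Rpl22 is known to repress, stood at 156, 157, 131 and 135. The log2 ratio was -1.58 ± 0.11, so Rpl22l1 gave 25.1% ± 1.41 of the pair. With coding transcript lengths it was -0.63, the ratio nearest to 0 of the 9 pairs under those lengths.

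The other paralogues were scarce. Rps27rt had 155, 181, 215 and 178 counts (48.6, 43.7, 32.9 and 36.8 TPM), with a log2 ratio of -4.75 ± 0.25 to Rps27 (-6.14 with coding transcript lengths). Given the identical coding sequence printed above, 89.5% of its windows also occur in Rps27. Where in Rps27rt the counted fragments lie was not tested, and its level is uncertain. Rpl39l, known for its high level in testis, had 57, 24, 17 and 31 counts. Rpl39 was higher 143-fold by pooled counts per length (95% interval 120.4 to 172, counting error only), and from 61.04 to 358-fold over the libraries. The log2 ratio was -7.22 ± 1.01, and -8.12 with coding transcript lengths. Rps4l had 62, 68, 185 and 164 counts with a log2 ratio of -7.99 ± 0.48 to Rps4x.

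Paralogues that belong to muscle and male germ cells were almost unseen. Rpl3l, the striated muscle paralogue of Rpl3, had 0, 0, 3 and 2 counts, and Rpl3 (1108 ± 26.3 TPM) was 18163-fold higher by pooled counts per length (95% interval 7783 to 55938). Rpl10l, a retrogene used in spermatocytes while the X-linked Rpl10 is silent, had 0 counts in each library. Taking 3 counts per library as the upper limit, Rpl10 was at least 3255-fold to 6596-fold higher.

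**Figure D3:**
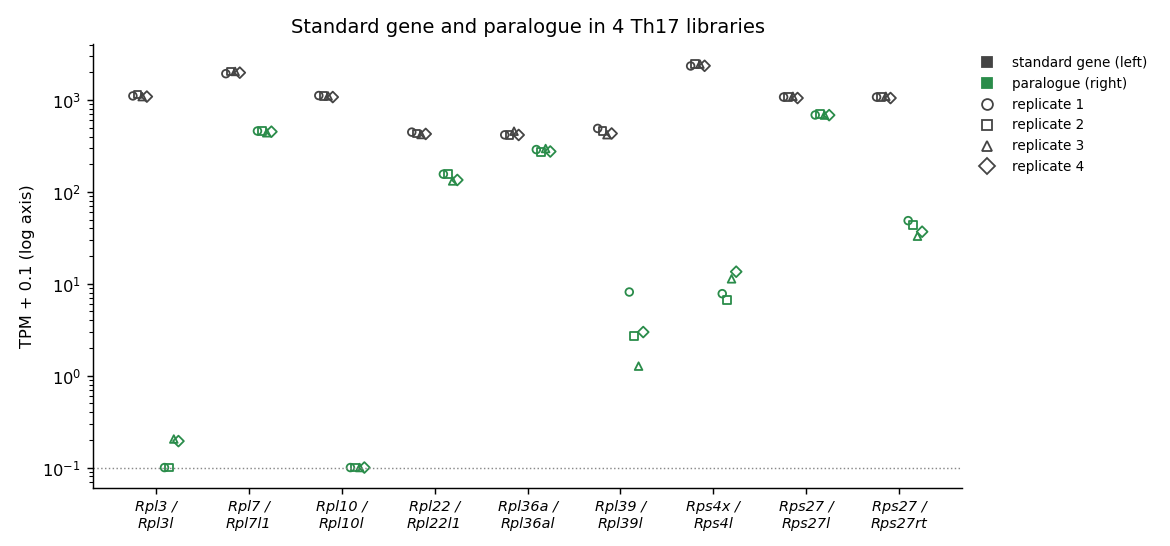
TPM + 0.1 on a log axis for each standard gene (dark, left) and its paralogue (green, right) in 9 pairs, with 1 symbol per replicate; the dotted line is the value of a gene at 0 counts. Each paralogue lies below its standard gene, with Rps27l and Rpl36al closest by exon length (Rpl22l1 by coding transcript length), and Rpl10l on the dotted line.

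Of the 6 coding genes with a pseudogene name, Rpl10-ps3 (8.61 ± 0.897 TPM), Rpl9-ps6 (7.26 ± 1.54) and Rpl36a-ps1 (1.79 ± 0.549) were at 1 TPM or more in every library. Rps12-ps3 stood at 0.949, 0.183, 0.116 and 0.313 TPM, from 4, 1, 1 and 2 counts. Rpl9-ps1 and Rpl36-ps4 had 0 counts in each library. Of their 100-base windows, 100% of Rps12-ps3, 95.8% of Rpl10-ps3, 80.2% of Rpl9-ps6 and 53.7% of Rpl36a-ps1 occurred in other genes, with the parent as the gene that shared most. Rpl36 was the only standard gene with such a share over 50% (55.3%) when all its annotated transcripts were searched. Over coding transcripts alone, further standard genes passed 50%, such as Rpl36a (83.6%) and Rpl24 (80.1%).

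Copies and overlaps touch many members. The option for fragments that map to several places was not set in the counting, so such fragments are left out. At least 10% of 100-base windows occurred in transcripts of other genes for 48 of 77 standard genes. Those other genes include ones on the same strand at the member's own locus, such as Gm45713 for Rpl13a. The count is therefore not one of genes whose fragments map to several places. The median of the 48 standard genes was 1064 TPM, against 1008 for the other 29. When only coding transcripts of each member were searched, an alternative chosen after seeing the data, 21 of 91 members passed 50% in place of 6. Exons overlapped another gene on the same strand in 26 of 77 standard genes (33.8%), against 6.90% of protein-coding genes, and the partners were mostly small nucleolar RNAs. In all, 30 of the 77 (38.96%) held such an RNA within their span on the same strand, as did 1.16% of protein-coding genes.

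Pseudogenes named after a member numbered 275, with 59 parents, and 189 had a count in at least 1 library. Together they held 0.397%, 0.390%, 0.399% and 0.409% of the members' counts. At 1 TPM or more in every library were 64. The 10 with the most counts held 60.2% of the pseudogene counts.

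Members varied little between the 4 libraries. The median coefficient of variation of TPM over standard genes was 2.58%, from 1.04% to 7.22%, and the median ratio of the highest to the lowest library was 1.06, at most 1.18. On the log2 scale of CPM, counts scaled to the library total, the median SD was 0.041 over standard genes and 0.070 over all 12434 genes tested. Over the 6278 genes at or above the level of the lowest standard gene, Rpl24, it was 0.045. The other standard genes lay above Rpl24, so this set is not matched to them in level. Rps19 had the lowest SD (0.0062) and Rps29 the highest (0.11), followed by Rpl24 (0.099), Rpl21 (0.093) and Rpl39 (0.091). Rps29, a small zinc-binding protein, stood at 941, 1014, 1107 and 1064 TPM, lowest in replicate 1.

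To ask which members vary more than genes of their level usually do, each gene's negative binomial deviance was taken at edgeR's trended dispersion, with Benjamini-Hochberg adjustment over all genes tested. Of 91 members, 85 passed the filter on low counts, the 77 standard genes among them. One of the 85 was called, Rpl39l, and 0.523% of all genes tested (65 of 12434) were called. At an unadjusted p under 0.05 there were 2 of 85 members, Rpl39l and Rpl22l1, against 4.48% of all genes. With DESeq2's dispersion trend, or with the trend fitted without X, Y and mitochondrial genes, 9 of 85 members passed that unadjusted threshold. The share of all genes passing it was not taken under these trends, so the 9 cannot be set against one. Rpl39l was again the only member called after adjustment, with 0.555% and 0.877% of all genes called. Poisson deviance with a 2-fold ratio likewise called Rpl39l alone, with 1.74% of all genes called, as did the trended deviance with that ratio, with 0.145%. Without the ratio it passed 76 of 85 members and 36.6% of all genes.

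Rpl39l stood at 8.04, 2.61, 1.17 and 2.88 TPM, from 57, 24, 17 and 31 counts. Replicate 1, the library with the smallest total, was highest and replicate 3, the largest, was lowest, a 6.54-fold range of CPM. The adjusted p was 1.22e-05 (edgeR), and over the alternatives it ran from 4.39e-06 to 1.00. The highest value came without replicate 1, so the call rests on that library. Rpl22l1 was higher in replicates 1 and 2 than in replicates 3 and 4, with an adjusted p of 0.211, which missed the threshold of 0.05. Rps27rt, with a larger SD than Rpl22l1 (0.24 against 0.13), had an adjusted p of 1.00 at its lower level.

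**Figure D4:**
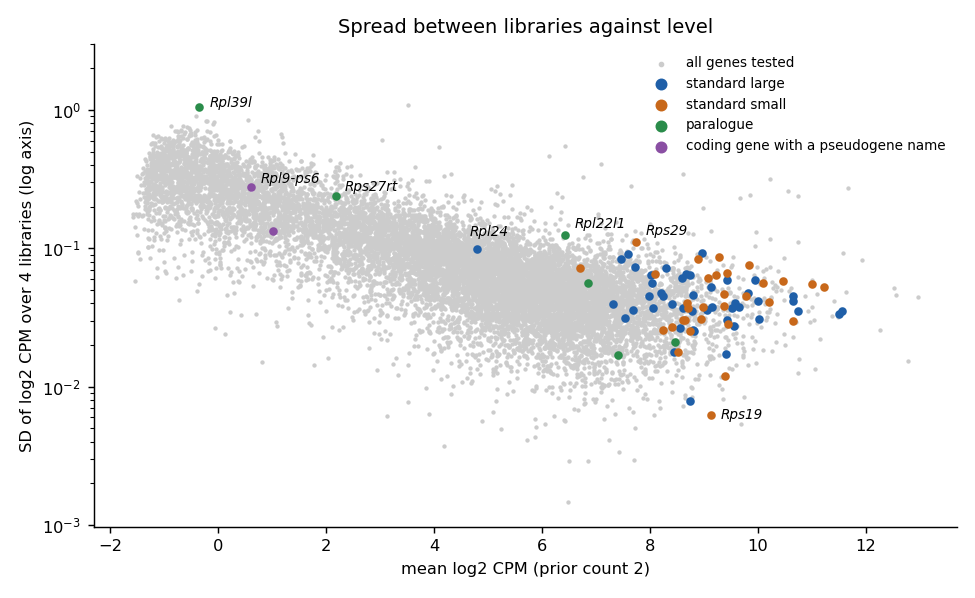
SD of log2 CPM over 4 libraries (vertical log axis) against mean log2 CPM (horizontal axis) for 12434 genes tested in grey and 85 members in colour. Standard genes sit at the right with a median SD of 0.041, and Rpl39l lies at the upper edge of the genes of its low level.

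Departures of standard genes from their own means were summarised for each library. The median departure of log2 CPM from each gene's own mean was -0.018, 0.0039, 0.019 and 0.00034 in replicates 1 to 4, where all genes tested had medians of at most 0.0015. In replicate 1, 26 of 77 standard genes lay above their mean, and 39, 51 and 40 did in the others. Among genes at or above the level of the lowest standard gene the percentages were 49.1, 54.2, 49.4 and 50.1. The large subunit's median in replicate 1 was -0.034 and the small subunit's -0.016, and in replicate 3 they were 0.020 and 0.017. For the standard members of both subunits that share little sequence, the medians were -0.0036 in replicate 1 and -0.0062 in replicate 3. The departure in replicate 1 was thus smaller in size than the -0.018 of all standard genes. The higher value in replicate 3 did not hold. Members of a library share its depth and scaling and are not replicates, so no test was made.

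**Figure D5:**
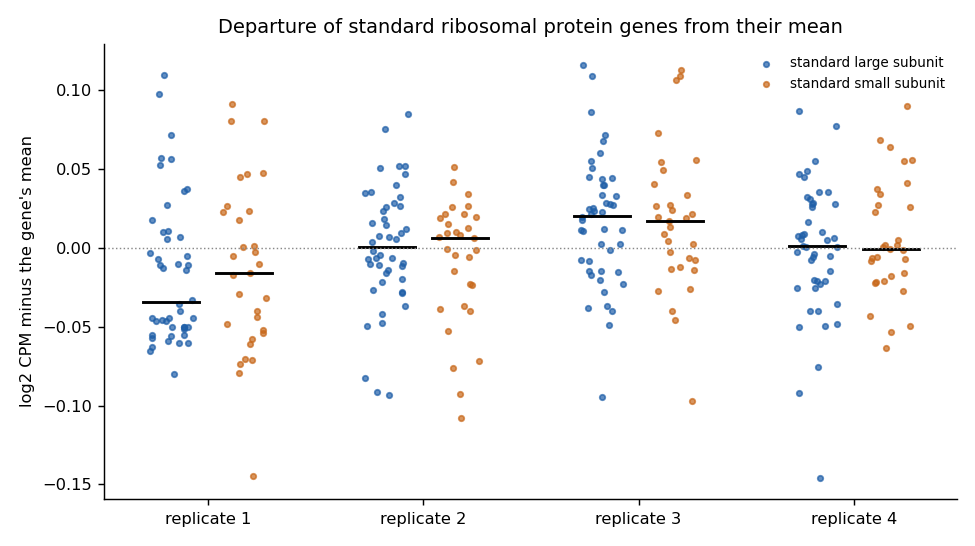
Departure of log2 CPM from the gene's mean (vertical axis) for 77 standard genes in each replicate (horizontal axis), with points coloured by subunit, spread sideways for legibility, and black bars at the medians. Points scatter within about the same range in each library, and the medians lie between -0.034 and 0.020.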

How the data were processed

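The authors deposited raw fragment counts per gene, made per the file headers with featureCounts 1.4.6-p4 on paired, reverse-stranded reads over GENCODE M13 exons, with the exon length of each gene in bases. Multi-mapping fragments and fragments on exons of 2 genes were not kept. The build is mm10 per the labels. An aligner is named in no source used here beyond a hint in the alignment names. Symbols, biotypes and transcripts came from GENCODE M21 (50376 of 50600 gene IDs matched without version). Promoters came from RefSeq GRCm38.p6. TPM was computed from the counts and lengths. Shared windows are 100-base stretches of a gene's transcripts found in transcripts of other genes. Antisense genes at the same locus were left out, and same-strand genes there were kept.

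Variation was tested with edgeR 4.0.16 (R 4.3.3, TMM, default filter, prior count 2) by deviance on 3 degrees of freedom. Its check used counts simulated at the same trended dispersion, so it cannot show how well the test suits these libraries. DESeq2 1.42.0 gave alternatives. Pair ratios used log2(TPM + 0.1) and an exact sign-flip test with 16 patterns. Counting intervals are 95%, and a count of 0 allows 3 counts per library. Named were paralogues and their standard genes, the 10 highest and 10 lowest standard genes, X-linked, variable, shared and undetected members, and list members. Some of the genes with the largest SD and the largest change of length were named after their values were seen. Members and lists were chosen with earlier results of these data known. A few members and list genes stayed in the fits and counts but are not reported by name here, nor in the plot of levels.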

Additional observations from a re-analysis of the deposited data

Results flagged for a closer look

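Among 93 values checked over the 4 libraries, 5 had 1 library far from the other three by Dixon's test, and chance marks about 1 in 20 groups. Rpl10a stood at 663 TPM and Rpl13 at 559.7 TPM in replicate 1, above the other libraries. Rps27l was highest in replicate 2, at 700.3 TPM. Rpl36a was highest in replicate 3, at 458 TPM beside 416 to 417. Rpl41 was highest in replicate 4, at 2956 TPM. Each of these 5 values was the highest of its gene.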

How the results depend on the processing

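Of 157 alternative values, 146 kept their direction and side of the threshold or stayed within the spread of replicates. Without replicate 1 the count of variable members was 0 in place of 1. Small against large subunit reversed with sums (-0.59) and arithmetic means (-0.025, added after seeing the data). The share of TPM, 11.5%, was 11.6% with coding transcript lengths, 11.8% without mitochondrial genes, 11.9% of protein-coding genes and 11.3% for standard genes alone (added after seeing the data), and the share of counts was 5.32%. The median in replicate 3 was -0.0062 for members that share under 10% of windows. Members with over 50% of windows elsewhere were 11 with 50-base windows and 21 with coding transcripts only. Leaving out each replicate gave 0 to 1 variable members and a share of 11.5%. No paired analysis was possible because the series has 1 group. Exon length, shared sequence and 1 donor label limit the comparison of levels between genes.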

Other observations

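Rpl14-ps1, annotated as a processed pseudogene and named here after its values were seen, had 797, 1241, 2453 and 1751 counts, or 143, 172, 215 and 207 TPM. It held 6.64% as many counts as its parent Rpl14, which stood at 1145, 1185, 1107 and 1131 TPM. The pseudogene was lower in replicates 1 and 2 than in replicates 3 and 4, and its adjusted p by edgeR's trended deviance was 0.00329. By that test 0.523% of all genes tested were called. Of the 100-base windows of Rpl14, 18.1% also occur in Rpl14-ps1, and 36.9% of those in its coding transcripts. Shared sequence thus limits the level of this copy too. The share of the copy's own windows was not taken. The mean of Rpl14-ps1, 184 ± 33.3 TPM, exceeded that of the standard gene Rpl24. Rps24-ps3 followed with 404, 515, 827 and 662 counts (119.6 ± 5.21 TPM), with an adjusted p of 1.00.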
